A study of Mus musculus with 8 samples.

Results

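Tuft cells are rare chemosensory cells of the gut epithelium, and 8 of the genes that mark them were followed here through the inflamed mouse colon: Dclk1, Trpm5, Pou2f3, Avil, Alox5, Il25, Sh2d6 and Gfi1b. They were picked by name as known tuft cell genes, and all 8 were found among the 53465 genes of the deposited table. RNA came from 4 wild type and 4 Arg1 ko mice. Arginase 1, its product, breaks down arginine to ornithine and urea. The ko mice carried a conditional, cell-specific Arg1 deletion on the B6 background, and the labels name neither the Cre driver nor the cells that lost the gene. The wild type mice were littermates that expressed Arg1, matched for age and sex. All 8 mice were 7 to 12 weeks old and were killed on day 10 after colitis was induced, having drunk 2.5% dextran sulfate sodium (DSS) for a week and plain water after that. There was no group without DSS, so the response of tuft cell genes to colitis itself could not be measured. The littermates were separated 2 to 3 weeks before the experiments began. The labels give colon as the tissue, while by the protocol the RNA came from clumps of epithelial cells shaken off the intestine in 30 mM EDTA.

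Tuft cells read the gut lumen with a pathway borrowed from taste cells, in which receptors act through a G protein and phospholipase C to open the cation channel TRPM5. In the mouse small intestine they release the cytokine IL-25 and cysteinyl leukotrienes in response to helminths and protists, which drives innate lymphoid cells to make IL-13, and IL-13 in turn raises the number of tuft and goblet cells. Pou2f3, a POU-domain transcription factor, is needed for the cells to form.

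The values are regularised log2 values (rlog), in which counts are scaled for library size and drawn toward each gene's mean, so that differences of weakly expressed genes come out too small. The depth of the libraries is unknown. Of the 8 genes, 6 had a mean rlog of at least 3 and were tested, in a fit over 16380 genes, and Gfi1b and Il25 lay below that level. Differences are Arg1 ko minus wild type in rlog units. Arg1 rlog was 5.59, 5.57, 5.02 and 5.58 for wild type 1 to 4, against 5.06, 4.87, 5.15 and 5.19 for Arg1 ko 1 to 4. The difference of Arg1 was -0.37 (limma adjusted p = 0.522). As the cells that lost the gene are not named, Arg1 in this RNA cannot check the labels. The library labelled wild type 3 thus lay inside the ko range, and values on the genes below are given without it too where that mattered. That library also stood apart in B cell genes, whose list mean was 1.20 above the mean of all libraries, against -0.45 to 0.19 in the other wild type libraries and -0.25 to -0.0012 in the ko.

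RefSeq (GRCm38.p6) gave promoter windows for 6 of the 8 genes, 7 windows in all, of which the 250 bases before each start were read. They are shown because Pou2f3 belongs to the factors that bind the octamer. The 7-letter core ATGCAAA, searched on both strands, occurred in 1 of the 7 windows, that of Avil, and in 4.12% of the 32851 windows of all genes. The full octamer ATGCAAAT, which contains this core, occurred in none of the 7 and in 1.6% of all windows. Avil has the core at -15 from the start on its own strand and at -115 on the other strand. Capitals mark the core. The pair of Dclk1 windows lie before separate starts of the gene, whose transcripts the deposited value sums, and neither holds the core.
Avil promoter (chr10:127000459-127000708, plus strand): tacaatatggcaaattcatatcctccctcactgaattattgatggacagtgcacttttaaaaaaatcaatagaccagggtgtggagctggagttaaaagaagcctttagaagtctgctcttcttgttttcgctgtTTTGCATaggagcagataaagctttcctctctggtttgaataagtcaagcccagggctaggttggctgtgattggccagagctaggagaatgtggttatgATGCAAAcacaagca
Dclk1 first start (chr3:55242114-55242363, plus strand): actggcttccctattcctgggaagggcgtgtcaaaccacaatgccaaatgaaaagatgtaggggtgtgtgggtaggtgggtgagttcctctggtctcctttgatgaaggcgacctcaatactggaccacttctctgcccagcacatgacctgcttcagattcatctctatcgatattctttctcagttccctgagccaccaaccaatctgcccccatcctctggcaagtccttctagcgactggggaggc
Dclk1 second start (chr3:55461478-55461727, plus strand): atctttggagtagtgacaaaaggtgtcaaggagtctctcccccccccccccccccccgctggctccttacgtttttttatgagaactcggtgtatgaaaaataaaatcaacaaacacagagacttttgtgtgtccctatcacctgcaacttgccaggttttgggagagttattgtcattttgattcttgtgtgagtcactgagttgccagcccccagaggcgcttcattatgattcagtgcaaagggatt

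Coordinates below are GRCm38. All 8 genes were detected, and per kilobase they spanned a wide range, with Sh2d6 and Avil at the top and Gfi1b and Il25 at the bottom. On the scale of rlog minus log2 of the union exon length in kilobases, the levels over the 8 libraries were 5.77 ± 0.08 (SD, n = 8) for Sh2d6, 5.52 ± 0.17 for Avil and 5.07 ± 0.27 for Dclk1. They were 4.51 ± 0.23 for Trpm5, 4.09 ± 0.18 for Alox5 and 3.20 ± 0.15 for Pou2f3. Gfi1b stood at 1.75 ± 0.12 and Il25, the cytokine, at 0.93 ± 0.10. From Alox5 down, each gene lay apart from the next in all libraries. Among Sh2d6, Avil, Dclk1, Trpm5 and Alox5 the ranges of neighbours overlapped. With the longest transcript as the length, Dclk1 (6.01) moved above Avil (5.69), since the annotated exons of Dclk1 add up to 15296 bases and its longest transcript to 7962. Against all tested genes, without correction for length, the mean rlog of Dclk1 lay above 55.5% of genes, and those of the other 5 tested genes above 13.96% to 33.8%.

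**Figure D1:**
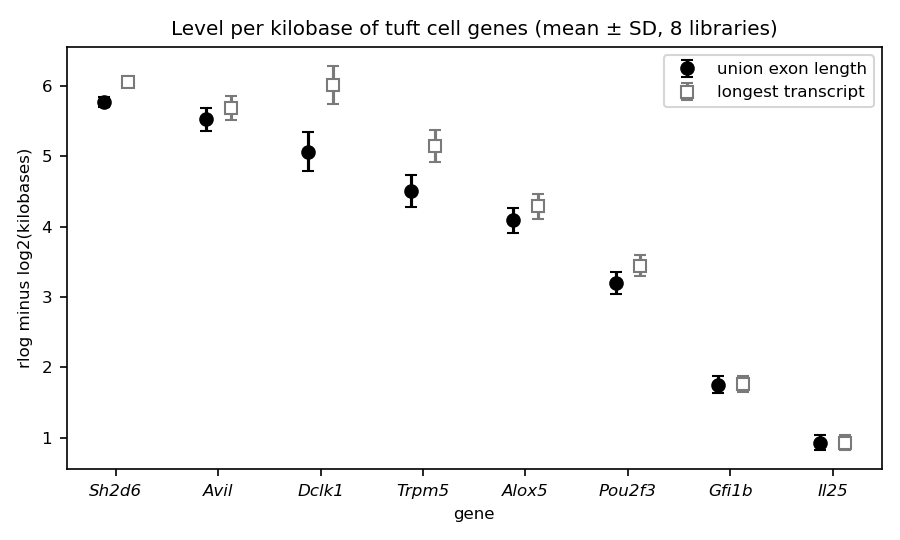
Mean level per kilobase (rlog minus log2 of kilobases) of the 8 tuft cell genes over 8 libraries, with SD bars. Filled circles use the union exon length and open squares the longest transcript. Sh2d6 stood at 5.77 and Il25 at 0.93, and Dclk1 shifted most with the choice of length, from 5.07 to 6.01.

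Between the genotypes, no tuft cell gene differed beyond the spread between mice. Of the 6 tested genes, 0 passed an adjusted p of 0.05 (limma; 0% of all 16380 tested genes passed), and 0 passed at an unadjusted p of 0.05, against 9.1% of all tested genes (4.73% higher in Arg1 ko). In an exact two-sided permutation test of each of the 8 genes, with 0.0286 the smallest p possible, the smallest was 0.114 (Dclk1). The groups overlapped in all 6 tested genes, while they lay apart in 4.03% of all (2.36% with Arg1 ko above). In 5 of the 6 the mean was higher in Arg1 ko (51.2% of all tested genes were), with a median difference of 0.11 over the 6 and 0.0064 over all. Without the library labelled wild type 3, all 6 were higher in Arg1 ko (51.5% of all tested genes), with a median of 0.20. Then 0 of the 6 passed the adjusted p (limma; 6.14% of all tested genes, 2.85% higher), and 2, Dclk1 and Trpm5, had an unadjusted p under 0.05 (28.1% of all, 13.9% higher). In bulk RNA, fewer tuft cells and less RNA per cell cannot be told apart, and the sample numbers in the labels run separately in each genotype, so that batch and genotype cannot be told apart either.

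**Figure D2:**
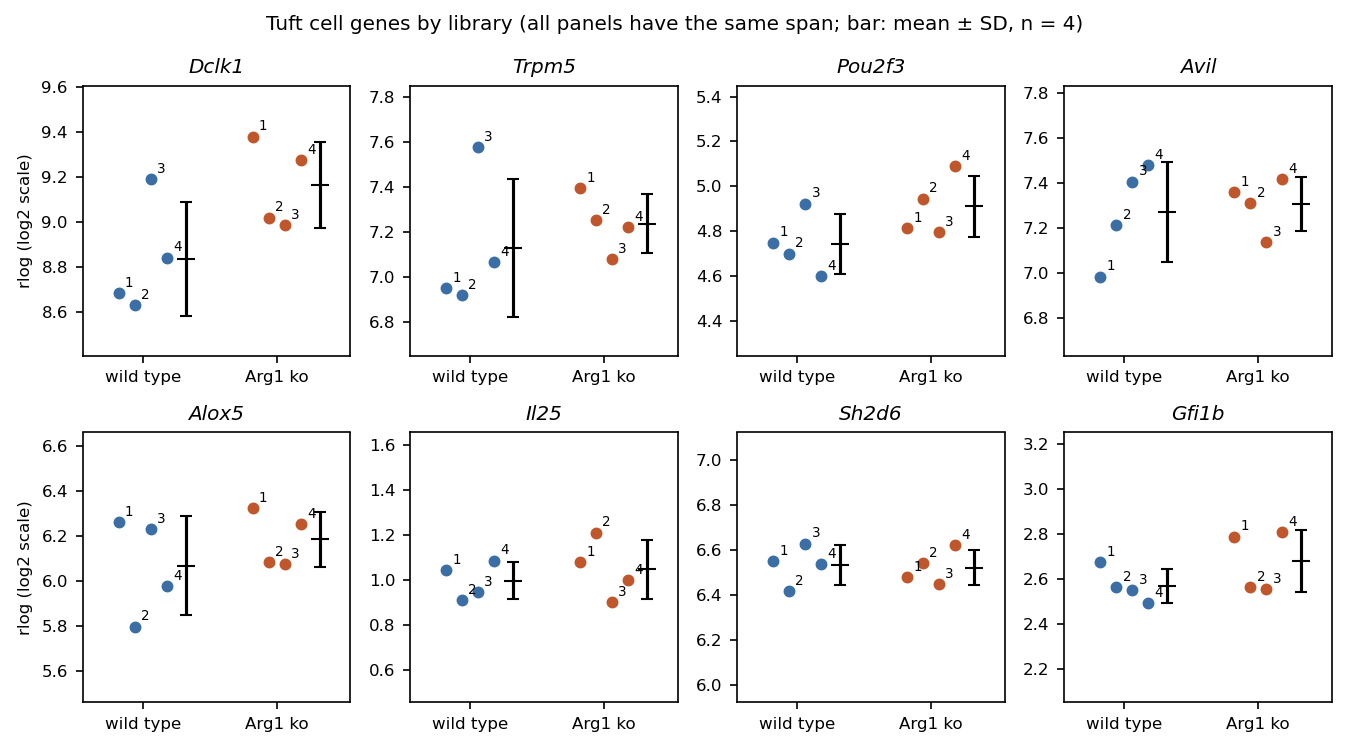
rlog value of each tuft cell gene in each library (points numbered by replicate), wild type left and Arg1 ko right, with mean ± SD (n = 4). All panels have the same span. The groups overlapped in all 8 genes, and the library labelled wild type 3 was the highest wild type library for Dclk1, Trpm5, Pou2f3 and Sh2d6.

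Dclk1 (ENSMUSG00000027797, chr3:55242364-55539068, plus strand), a microtubule-binding kinase and the most used histological marker of mouse tuft cells, had the largest difference of the 8. Its rlog was 8.68, 8.63, 9.19 and 8.84 in wild type 1 to 4 and 9.38, 9.02, 8.98 and 9.27 in Arg1 ko 1 to 4. All 4 ko values lay above 3 of the 4 wild type values, and the library labelled wild type 3 fell among them. Wild type averaged 8.84 ± 0.25 and Arg1 ko 9.16 ± 0.19 (SD, n = 4 each), so that the difference was 0.33 (SE 0.15), with a 95% interval of -0.0028 to 0.66 (limma adjusted p = 0.522, range over 15 alternatives 0.0671 to 0.819). Leaving out that library gave 0.45 (limma adjusted p = 0.0671), and the groups no longer overlapped.

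Trpm5 (ENSMUSG00000009246, chr7:143069153-143094642, minus strand), the channel that ends the taste-like cascade, had 6.95, 6.92, 7.58 and 7.07 in wild type 1 to 4. In Arg1 ko 1 to 4 it had 7.40, 7.26, 7.08 and 7.22. The highest value of all 8 was that of the library labelled wild type 3, and the other 3 wild type libraries lay below every ko library. The difference was 0.11 (SE 0.16, limma adjusted p = 0.775). Leaving out the library labelled wild type 3 gave 0.26 (limma adjusted p = 0.178). An exon of Trpm5 overlaps Tssc4 on the opposite strand, which was more abundant, with rlog values of 8.36 to 9.41. The library kit keeps strand, but the counting's own strand setting was not stated, and the part of Tssc4 reads in the Trpm5 value was not tested.

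The transcription factors were the least abundant of the genes apart from Il25. Pou2f3 (ENSMUSG00000032015, chr9:43123939-43210369, minus strand) had 4.75, 4.70, 4.92 and 4.60 in wild type 1 to 4 and 4.82, 4.95, 4.80 and 5.09 in Arg1 ko 1 to 4. Arg1 ko 4 and 2 were the highest, the library labelled wild type 3 came next, and the other 3 wild type libraries were the lowest. The difference was 0.17 (SE 0.12, limma adjusted p = 0.571), and 0.23 without the library labelled wild type 3 (limma adjusted p = 0.224). Without that library the groups lay apart in 3 of the 6 tested genes, Dclk1, Trpm5 and Pou2f3, where 25.6% of all tested genes did (12.5% with Arg1 ko above). It was the highest wild type library in these 3 genes, so that leaving it out lowers the wild type mean by construction. For Trpm5 the remaining gap was narrow, from 7.065 in wild type 4 to 7.079 in Arg1 ko 3.

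Gfi1b (ENSMUSG00000026815, chr2:28609450-28621982, minus strand), a zinc finger repressor that tuft cells share with red cell and platelet precursors, had 2.68, 2.56, 2.55 and 2.49 in wild type 1 to 4. In Arg1 ko 1 to 4 it had 2.79, 2.56, 2.56 and 2.81. Arg1 ko 1 and 4 were the highest and the others lay within the wild type range. The difference of 0.11 did not pass the test when the filter was dropped (limma adjusted p = 0.73). Of the 7 red blood cell genes all 5 tested had a lower mean in Arg1 ko (48.8% of all tested genes did), none called with all libraries, with a list mean of -0.75 to 1.35 in wild type and -0.78 to -0.0112 in Arg1 ko. Without the library labelled wild type 3 all 5 were called lower (limma; 3.28% of all tested genes were), and their median difference moved from -0.88 to -1.32. That library had the lowest wild type mean of this list (-0.75), so leaving it out widens the difference by construction. The platelet list, 4 of 7 genes tested, ranged from -0.21 to 0.28 in wild type and from -0.31 to -0.0093 in Arg1 ko. Their part in the Gfi1b value was not tested.

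Avil (ENSMUSG00000025432, chr10:127000709-127020994, plus strand) encodes advillin, an actin-binding relative of villin that is also made by sensory neurons. Its rlog was 6.98, 7.21, 7.41 and 7.48 in wild type 1 to 4 and 7.36, 7.31, 7.14 and 7.42 in Arg1 ko 1 to 4. The wild type values enclosed all the ko values. The difference was 0.04 (SE 0.14, limma adjusted p = 0.916, 95% interval -0.27 to 0.34), and its sign turned with quantile normalisation (-0.03), without wild type 1 (-0.06) and without Arg1 ko 4 (-0.00078). An exon of Avil overlaps the mitochondrial translation factor gene Tsfm on the opposite strand, at rlog 8.40 to 9.75. Tsfm was highest in wild type 1, where Avil was lowest, and lowest in wild type 4, where Avil was highest. The part of Tsfm reads in the Avil value was not tested.

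Sh2d6 (ENSMUSG00000052631, chr6:72513641-72521707, minus strand), an SH2 domain protein, was the steadiest of the 6 tested genes. It had 6.55, 6.42, 6.63 and 6.54 in wild type 1 to 4 and 6.48, 6.54, 6.45 and 6.62 in Arg1 ko 1 to 4. The whole range over 8 libraries was 0.21, and the wild type range enclosed the ko range. The difference was -0.01 with a 95% interval of -0.25 to 0.23 (limma adjusted p = 0.967). It was 0.02 without the library labelled wild type 3, and 0.11 with each library centred on the epithelium list, a scaling that moved the median of all genes to 0.12.

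The secreted products came from Alox5 and Il25. Alox5 (ENSMUSG00000025701, chr6:116410077-116461178, minus strand), the 5-lipoxygenase that starts leukotriene synthesis and is also made by leukocytes, had 6.26, 5.80, 6.23 and 5.98 in wild type 1 to 4. In Arg1 ko 1 to 4 it had 6.32, 6.08, 6.07 and 6.25. Wild type 2 and 4 were the lowest, and the others lay together. The difference was 0.12 (SE 0.14, limma adjusted p = 0.718). The mean of the neutrophil list was highest in wild type 2 (0.76, 8 of 9 genes tested), the library with the lowest Alox5. Csf3r (5.18) and Mmp9 (6.54) of that list were not highest in wild type 2. The macrophage list, with all 8 genes tested, ranged from -0.37 to 0.22 in wild type and from 0.03 to 0.11 in Arg1 ko. The mast cell list, with 5 of 9 genes tested, ranged from -0.09 to 0.03 and from -0.02 to 0.04. The part of leukocytes in the Alox5 value was not tested.

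Il25 (ENSMUSG00000040770, chr14:54932695-54935837, plus strand) had 1.04, 0.91, 0.94 and 1.08 in wild type 1 to 4 and 1.08, 1.21, 0.90 and 1.00 in Arg1 ko 1 to 4. All 8 values lay within 0.31 of each other, at a low level, where rlog draws values together most. Arg1 ko 2 was the highest and Arg1 ko 3 the lowest, and a difference of 0.05 was not detectable at this level (limma adjusted p = 0.812 with no filter).

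Across the libraries no pair of the 8 genes was correlated past the adjusted test, though the coefficients were mostly positive. All 28 pairs had a positive Pearson correlation over the 8 libraries, with a median of 0.47 and a range of 0.00080 to 0.84. Over pairs among 4000 tested genes taken evenly through the table the median was -0.0013, and 49.9% were positive. The 28 pairs share 8 genes and are not independent of each other. Spearman's rho was positive in 24, 0 in 1 and negative in 3 pairs, with a median of 0.38. No pair passed when adjusted over the 28 (smallest adjusted p = 0.288, exact permutation test), and 1 passed unadjusted. That pair was Dclk1 and Trpm5, with r = 0.84 (exact permutation p = 0.0103) and Spearman's rho = 0.88 (exact permutation p = 0.0072), both two-sided with n = 8. Without Arg1 ko 1 and wild type 2, the libraries farthest from the median of Dclk1, r was 0.76. With the genotype means removed it was 0.91 (exact permutation within genotypes, p = 0.00868, adjusted p = 0.243). Of all tested genes 6.21% had a correlation with Dclk1 at least as high as Trpm5 had.

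**Figure D3:**
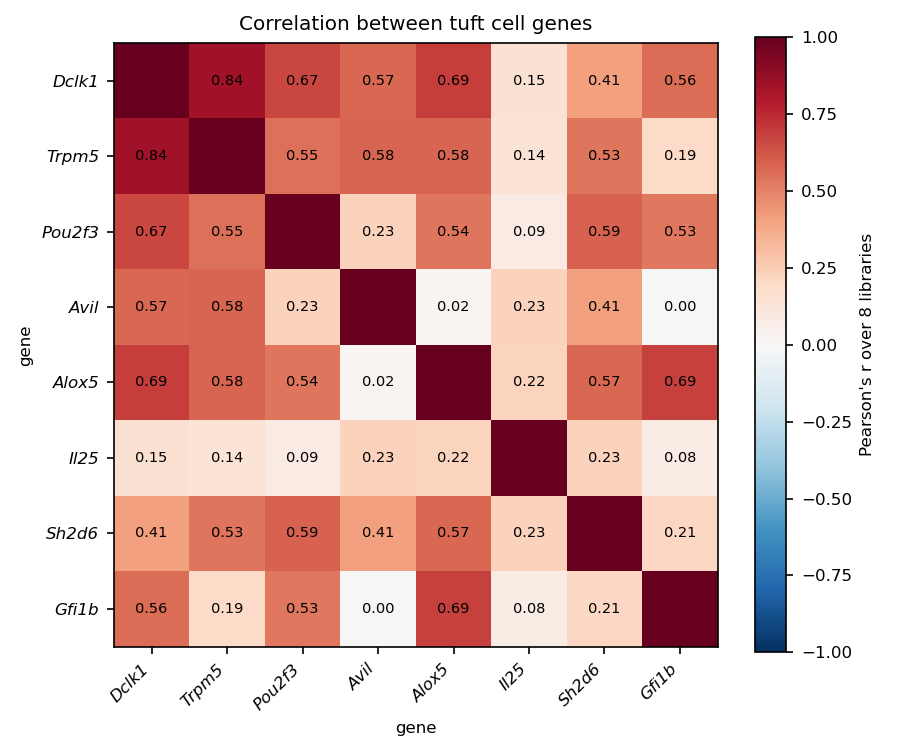
Pearson's r over the 8 libraries for each pair of the 8 tuft cell genes, both axes listing the genes. The highest value was 0.84, between Dclk1 and Trpm5, and Il25 had values of 0.08 to 0.23 with the others.

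Alox5 followed Dclk1 with r = 0.69 (exact permutation p = 0.0601) and rho = 0.64 (exact permutation p = 0.0962), n = 8. Without wild type 1, a library with high Alox5 and low Dclk1, r was 0.996 (exact permutation p = 0.0002, adjusted p = 0.00556), a choice made after seeing the data. Without Arg1 ko 1 and wild type 2 it was 0.28, so the relation rests on few libraries. At the other end, Avil and Gfi1b had r = 0.00080 (exact permutation p = 0.999) and rho = -0.19 (exact permutation p = 0.665), n = 8. Within wild type alone their r was -0.96 and within Arg1 ko alone 0.81, on 4 libraries each. With the genotype means removed, 23 of the 28 pairs had a positive r and 5 a negative one, with a median of 0.39.

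The mean of the 6 tested genes overlapped between the genotypes with all 8 libraries. Whether it did without the library labelled wild type 3 depended on how the genes were scaled. All 6 tested genes were above their own mean in Arg1 ko 4 and the library labelled wild type 3, and none was in wild type 2 or Arg1 ko 3. The mean deviation of the 6 genes was -0.128, -0.213, 0.168 and -0.0749 in wild type 1 to 4 and 0.133, 0.0335, -0.072 and 0.154 in Arg1 ko 1 to 4. Wild type 1, 2 and 4 lay below every ko library, wild type 4 by very little. With each gene divided by its SD (mean z-score), wild type 4 (-0.353) lay above Arg1 ko 3 (-0.494). The groups then overlapped also without the library labelled wild type 3. The epithelium list, 10 of 10 genes tested, went the other way in most libraries, at 0.32, 0.17, -0.19 and -0.06 in wild type 1 to 4 and -0.14, -0.04, 0.08 and -0.14 in Arg1 ko 1 to 4. Its most abundant genes were Lgals4 (mean rlog, not per length, 16.5), Krt8 (16.11) and Krt19 (15.38), and stromal and macrophage genes were abundant as well, with Dcn at 13.18, Col3a1 at 12.8 and C1qa at 10.97. The fibroblast list, with all 8 genes tested, had -0.28, -0.34, 0.09 and -0.16 in wild type 1 to 4 and 0.12 to 0.20 in Arg1 ko. Of its 8 genes 4, Col1a1, Col1a2, Col3a1 and Postn, were higher in every ko library than in any wild type library (limma adjusted p = 0.522 for each). The same held for 2.36% of all tested genes. The part of tissue make-up in the mean of the tuft cell genes was not tested.

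**Figure D4:**
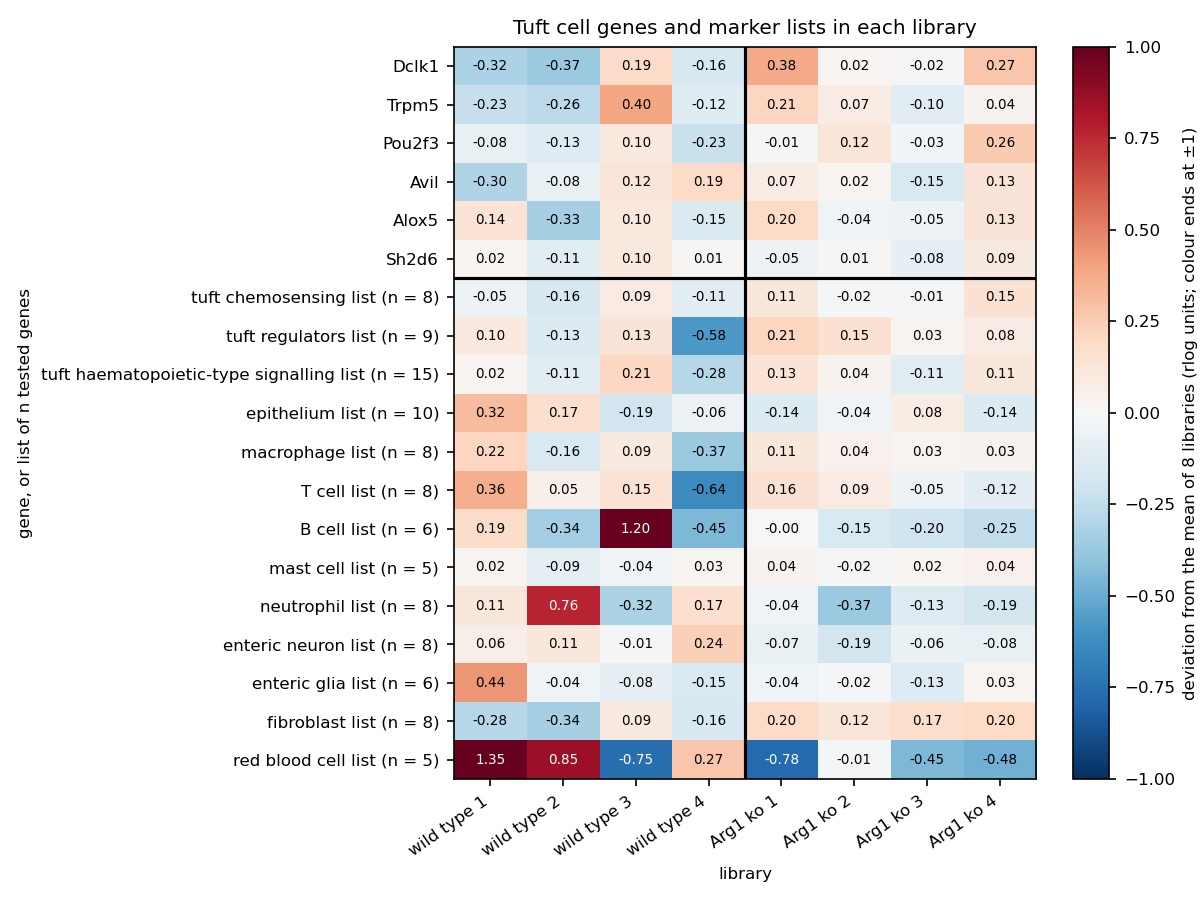
Heat map of the deviation from the mean of 8 libraries, in rlog units (colour and printed value, colour ending at ±1), with libraries across. The upper 6 strips are the tested tuft cell genes, and those under them the mean over the tested genes of a list. Dclk1, Trpm5, Pou2f3, Avil, Alox5 and Sh2d6 were all high in the library labelled wild type 3, where the epithelium list was at -0.19 and the B cell list at 1.20.

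Outside the 8 genes, those whose pattern over the 8 libraries was most like the mean z-score of the 6 tested genes, among 14393 genes searched, began with Serpinb9 (r = 0.99), an inhibitor of granzyme B, and Map9 (0.96), a microtubule-associated protein. Kcna2 (0.96) and Kcna1 (0.94) encode voltage-gated potassium channels, and St18 (0.96) is a zinc finger factor on the list of tuft regulators. Csf1r (0.95) is the receptor for macrophage colony-stimulating factor. Stk26, Ccdc88a, Slc7a2 and Asb1 followed at 0.94 each, of which Slc7a2 imports arginine. Within the lists of other tuft genes, 41 of the 57 tested had a positive r with the same mean, with a median of 0.32, against 51.7% of all tested genes and a median of 0.04. Highest were St18 (0.96) and genes that leukocytes make as well, Fyb (0.91), Plcg2 (0.89) and Ptprc (0.89), and lowest were Krt18 (-0.84) and Adh1 (-0.81). These likenesses are the highest of many over 8 libraries and describe those libraries only. Nearest to single genes were Twsg1, Stk3 and Nebl for Dclk1 (0.98 to 0.99) and Dock10 and Gria3 for Trpm5 (0.98). For Alox5 they were Cd274 (0.94) and the mast cell protease gene Mcpt2 (0.94).

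Other genes of the tuft cell programme stood in 6 lists, and 57 of their 60 genes were tested. Of the 57, 36 were higher and 21 lower in Arg1 ko, or 63.2% higher against 51.2% of all tested genes, with a median difference of 0.07. None passed the test over all genes (limma, smallest adjusted p = 0.522). At an unadjusted p of 0.05 there was 1 higher and 2 lower, against 9.1% of all tested genes (4.73% higher in Arg1 ko). Without the library labelled wild type 3 there were 4 called, 2 in each direction, where 6.14% of all tested genes were called. Of the 42 further genes chosen by abundance or unadjusted p in these lists and the type 2 list, 17 changed sign when some single library was left out.

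**Figure D5:**
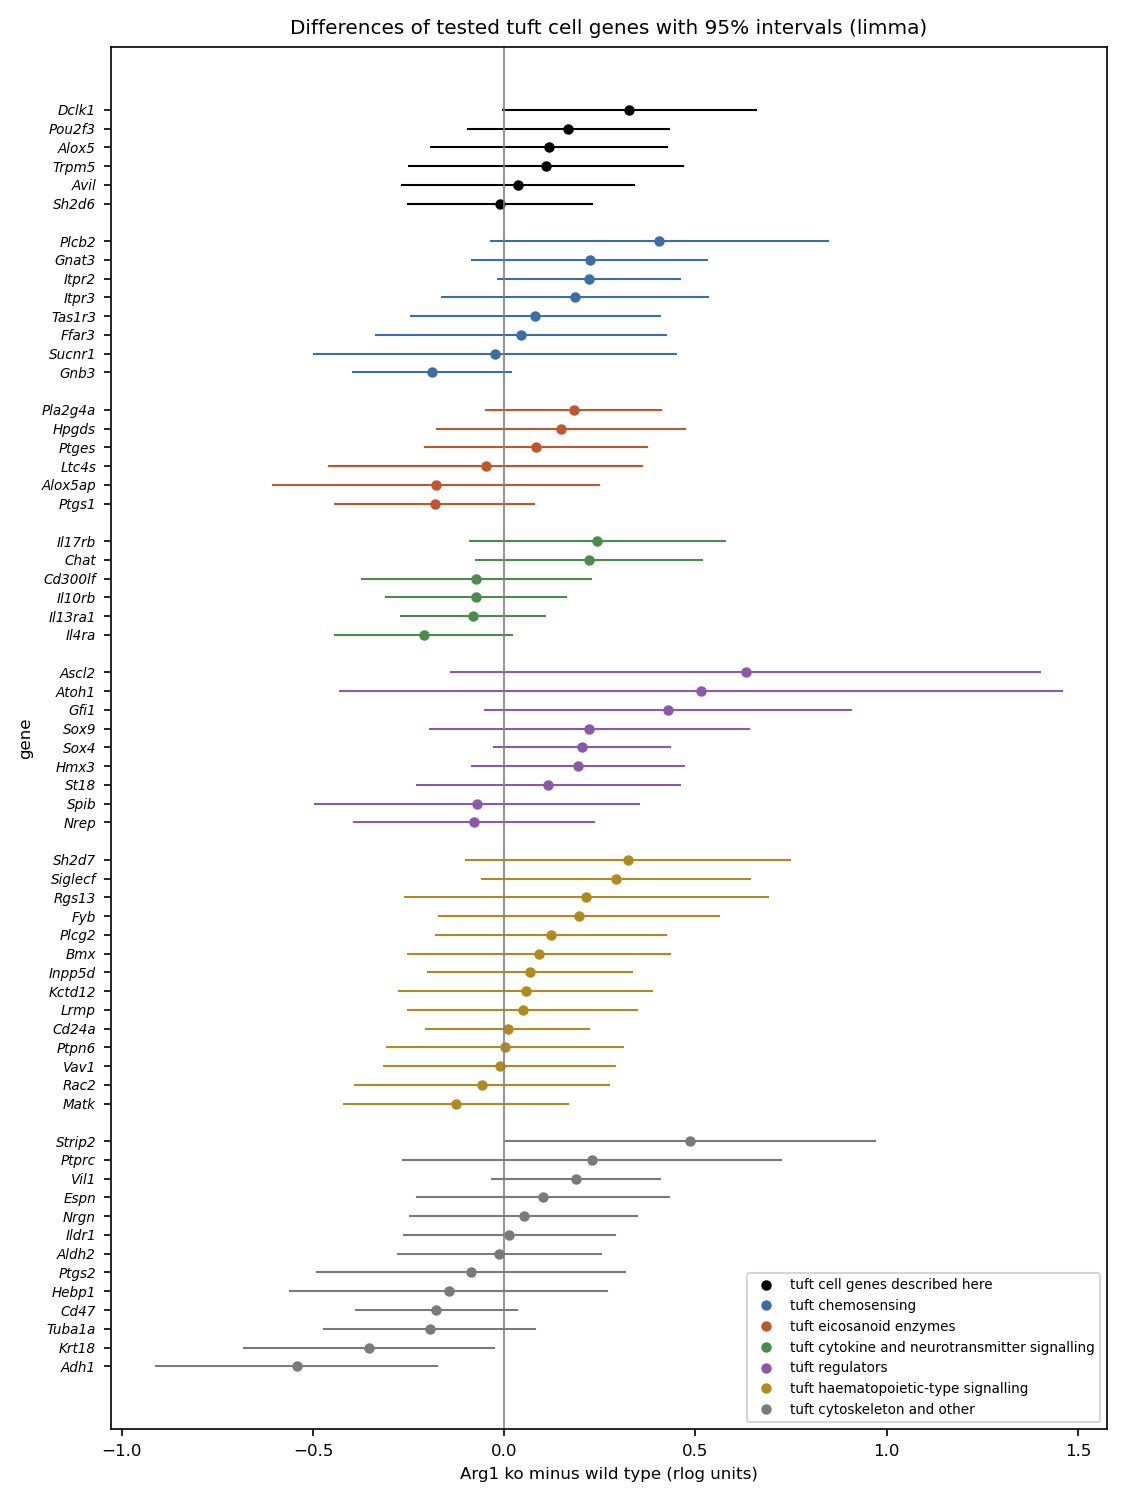
Difference, Arg1 ko minus wild type, in rlog units (points) with 95% intervals from limma (lines), for the 6 tested tuft cell genes and further tested genes of the tuft cell programme in 6 lists. Dclk1, at 0.33, had an interval that began just below 0, and no gene shown passed the adjusted test.

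The chemosensing list held 8 tested genes, 6 of them higher and 2 lower, with a median of 0.13. Plcb2, the phospholipase C upstream of TRPM5, averaged 5.89 ± 0.40 in wild type against 6.30 ± 0.19 in Arg1 ko (SD, n = 4 each), with a difference of 0.41 (limma adjusted p = 0.522). With the library labelled wild type 3 left out it was 0.60 (limma adjusted p = 0.0481). That library had the highest wild type value of Plcb2 (6.46), so leaving it out widens the difference by construction. Gnat3, the G protein subunit gustducin, differed by 0.22, the calcium release channels Itpr2 and Itpr3 by 0.22 and 0.18, and the taste receptor subunit Tas1r3 by 0.08. Ffar3, a receptor for short-chain fatty acids, differed by 0.04, and the lower pair were Gnb3, another G protein subunit (-0.19, limma adjusted p = 0.522), and the succinate receptor gene Sucnr1 (-0.02). Gng13, below the filter, had 2.51 in wild type and 2.33 in Arg1 ko, and Tas1r1 was very low, at -2.103 to -2.078.

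The 6 eicosanoid enzymes were evenly split, with 3 higher and 3 lower and a median of 0.02. Pla2g4a, which frees arachidonic acid, differed by 0.18, the prostaglandin synthases Hpgds and Ptges by 0.15 and 0.08, and cyclooxygenase 1, Ptgs1, by -0.18. Of the partners of Alox5 in leukotriene synthesis, Alox5ap, which hands arachidonic acid to the 5-lipoxygenase, differed by -0.18 and Ltc4s, which makes leukotriene C4, by -0.05. Alox5ap was highest in wild type 2 (7.66), the library with the lowest Alox5.

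Among receptors and signals, 2 were higher and 4 lower, with a median of -0.07. Il17rb, a subunit of the IL-25 receptor, differed by 0.24 and Chat, which makes acetylcholine, by 0.22. Il4ra, the receptor chain through which IL-4 and IL-13 signal, averaged 11.04 ± 0.18 in wild type against 10.83 ± 0.05 in Arg1 ko (SD, n = 4 each). Its difference was -0.21, and all 4 ko values lay below the wild type (limma adjusted p = 0.522). The groups lay apart, in either direction, in 4.03% of all tested genes. Il13ra1 differed by -0.08, Il10rb by -0.07 and the receptor gene Cd300lf by -0.07.

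The regulators, with 9 of 10 tested, were higher in 7 and lower in 2, with a median of 0.20. Atoh1, the master factor of secretory cells, differed by 0.51 and its target Gfi1 by 0.43, and both were lowest in wild type 4 (8.34 and 6.84). Without wild type 4 the difference of Atoh1 was -0.0087 and that of Gfi1 0.19. Sox9 and Sox4, factors of crypt progenitors, differed by 0.22 (0.03 without wild type 4) and 0.20, and Nrep by -0.08. Spib, an ETS factor of tuft, M and B cells, differed by -0.07 and by 0.13 without the library labelled wild type 3, where it was highest (7.43) beside the B cell genes.

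Of 15 signalling genes of a haematopoietic type, 12 were higher and 3 lower, with a median of 0.07. Their differences ran from -0.13 to 0.32. Kctd12 and the phosphatase Inpp5d differed by 0.06 and 0.07, the phosphatase Ptpn6 by 0.0014, Cd24a by 0.01 and Rac2 by -0.06. Leukocytes make most of these as well, and their part in these values was not tested. In the last list, of cytoskeletal and other genes, 6 were higher and 7 lower. Villin, Vil1, differed by 0.19 with all ko values above the wild type, as in 2.36% of all tested genes. Adh1 (-0.54), Krt18 (-0.35) and Strip2 (0.49) had an unadjusted p under 0.05 (limma adjusted p = 0.522 for each), and all are made outside tuft cells too. Without the library labelled wild type 3 all of them passed (limma), as 6.14% of all tested genes did. Adh1 was then at -0.70 (limma adjusted p = 0.0284), Krt18 at -0.50 (limma adjusted p = 0.0309) and Strip2 at 0.72 (limma adjusted p = 0.0323). The library left out had the lowest wild type value of Adh1 (11.96) and Krt18 (12.91) and the highest of Strip2 (6.88). Leaving it out thus widens these differences by construction. Aldh2, Ildr1 and Cd47 differed by -0.01, 0.01 and -0.18.

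The type 2 circuit around tuft cells did not differ beyond the spread between mice. Of 16 genes 11 were tested, 5 higher and 6 lower, with a median of -0.0069, and 0 passed (limma, as did 0% of all tested genes). At an unadjusted p of 0.05 there were 0, against 9.1% of all tested genes. Without the library labelled wild type 3, 0 passed the adjusted p (limma; 6.14% of all tested genes), with a median of -0.03. The largest difference was that of Cysltr1, at 0.43 (limma adjusted p = 0.522), and at 0.61 without that library (limma adjusted p = 0.0524). Cysltr1 was highest there (6.74), so leaving it out widens the difference by construction. Il13 (-2.103 to -2.078), Il5 (-1.75 to -1.71) and Il4 (-0.35 to -0.24) were very low in every library, and Il9 was listed at 0 in all 8, whereas the epithelial cytokines Il33 (8.14 in wild type, 8.08 in Arg1 ko) and Tslp (4.14 and 4.13) were above the filter. The IL-13 target of goblet cells Clca1 averaged 15.18 ± 0.21 in wild type against 15.52 ± 0.22 in Arg1 ko (SD, n = 4 each), with a difference of 0.34 (limma adjusted p = 0.522). Retnlb, another such target, differed by -0.11 within a wide spread of 0.69 (SD, n = 4) in each genotype. Stat6, Il33, Crlf2 and Il1rl1 differed by 0.13, -0.06, -0.07 and -0.25.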

How the data were processed

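RNA from the colon of 8 mice was measured, with 1000 ng of RNA per library and a stranded mRNA kit, per the labels' protocols. DESeq2 1.16.1, featureCounts, Subread 1.5.3, STAR 2.5.2b, BWA 0.7.14-r1136 and GRCm38 are named in the submitters' processing notes. Their order and options, annotation and strand setting: not given in the sources used here. For each library the authors deposited rlog values, on a log2 scale, from which counts and depth cannot be recovered. Genes were named from GENCODE M21 (GRCm38), and 53274 of 53465 IDs had a symbol. All 8 columns were matched by label.

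Non-constant genes whose rlog averaged 3 or more were fitted with limma 3.58.1 (R 4.3.3) on genotype, with a trended prior, two-sided, and Benjamini-Hochberg adjustment over 16380 genes at 0.05. On simulated data with independent noise for each gene, the fitted differences were checked to follow the known changes. That check does not measure the power of the test in these libraries. Single genes were also tested by exact permutation over 70 assignments, and pairs over 40320 pairings (576 within genotypes) with SciPy 1.17.1. The 8 genes and all lists were chosen with earlier results of these data known. Named are the 8 genes, Arg1, the 6 most abundant genes of each tuft or type 2 list with those under an unadjusted p of 0.05, the 3 most abundant of a marker list where it is described, and the 10 most similar patterns with up to 3 per gene. Genes overlapping an exon, Tas1r1, Gnb3, Sucnr1, Gng13, Fyb, Plcg2, Ptprc, the collagens, Postn, the type 2 cytokines and members of other lists with values in single libraries were named after their values were seen. So was Cysltr1. A gene that this rule names is not reported here. Alternatives were other filters, scalings, priors, thresholds, lengths and leaving out each library. Preparation batches are not given, caging and genotype cannot be told apart where littermates were separated by genotype, and p-values reflect only how these samples spread.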

Additional observations from a re-analysis of the deposited data

Results flagged for a closer look

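Of 102 groups of 4 libraries, for the 8 tuft cell genes and the named genes of the tuft and type 2 lists, 7 held a library far from the other 3, where chance gives about 1 in 20. None was a group of the 8 genes themselves. Hpgds was highest in the library labelled wild type 3 (7.83, the others 7.23 to 7.32), as was Cd300lf (5.91, the others 5.65 to 5.66), and Krt18 was lowest there (12.9, the others 13.4 to 13.5). In Arg1 ko 3, Cd300lf (5.34, the others 5.72 to 5.76) and Cd24a (13.4005, the others 13.5438 to 13.55) were lowest. Gfi1 was lowest in wild type 4 (6.84, the others 7.73 to 7.85) and Il10rb in Arg1 ko 4 (10.5, the others 10.5821 to 10.5936).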

How the results depend on the processing

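Under the alternatives of filter, scaling, prior and library, none of the 6 tested tuft cell genes was called in any, and Dclk1, Trpm5, Pou2f3 and Alox5 kept a positive difference in all in which they were tested; Pou2f3 lies below a mean of 5. Leaving out single libraries gave 0 to 1005 genes called over all genes, 0 to 4 called among the other tuft and type 2 genes, and 0 to 3 tuft cell genes whose groups lay apart, each highest without the library labelled wild type 3. Over the same fits Avil ranged from -0.0596 to 0.105 and Sh2d6 from -0.0507 to 0.0196. Avil was -0.0343 with quantile normalisation, and Sh2d6 0.106 when centred on the epithelium list; that scaling moved the median of all genes to 0.12. Correlated pairs that passed were 0 to 1 without single libraries, and all 28 after that centring, where the same library values are subtracted from each gene, which raises r by construction. No paired analysis was possible because replicate numbers only follow the order of deposit. Unknown depth and the shrinkage of rlog limit what can be seen of Il25 and Gfi1b.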
